A study of Gallus gallus with 6 samples.

Results

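The genes described here make, break down or sense adenosine and the nucleotides outside cells from which it is formed. The set holds 9 genes: the ectonucleotidases *entpd1*, *entpd2* and *nt5e*, the adenosine-clearing enzymes *ada* and *adk*, and the adenosine receptors *adora1*, *adora2a*, *adora2b* and *adora3*. Members were found by the gene symbol that the annotation of the array gives to a probe set, the group of probes that is summarized as 1 value. For 6 genes there was 1 probe set each, which makes 6 of the 20804 probe sets of the series, while the symbols *nt5e*, *adora1* and *adora2b* matched no probe set, by symbol, by gene ID or by an older name, and those 3 genes were not analysed here. The genes were chosen partly on their log2 values in the 3 tissues, which were in view when the set was proposed. The levels and differences of these genes are therefore a description, and no p-value is given for them. Calls of these genes by the fit are listed below for the record, and nothing is read from them.

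The samples were chick embryo arteries at internal pipping (IP), a stage late in incubation, shortly before hatching. There were 3 tissues, with no genetic change and no treatment: the descending aorta, and the descending aorta-sided (distal) and pulmonary artery-sided (proximal) parts of the right ductus arteriosus (DA), with 2 Affymetrix arrays of each and 6 in all. Each RNA sample came from tissue pooled from several embryos of Hypeco Nera chickens. Whether the duplicate arrays of a tissue were hybridized with RNA from separate pools is not stated in the labels or methods. An SE or a p-value therefore covers the spread among these arrays, and that spread may be technical.

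ATP that leaves a cell is cut to ADP and AMP by ectonucleotidases at the cell surface. ENTPD1 takes ATP and ADP to AMP, ENTPD2 prefers ATP and releases ADP, and NT5E turns AMP into adenosine. Adenosine deaminase, the product of *ada*, converts adenosine to inosine, and adenosine kinase, the product of *adk*, returns it to AMP. In mammals, the receptors encoded by *adora2a* and *adora2b* raise cyclic AMP and mostly relax vascular smooth muscle, while those of *adora1* and *adora3* lower it. P2X channels and P2Y receptors sense the nucleotides themselves.

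The widest tissue difference among the 6 measured genes was that of *entpd2*, the ATP-preferring ectonucleotidase, which had its highest values in the proximal DA. Its log2 value was 6.61 and 6.59 on the aorta arrays, 7.84 and 7.99 on the distal DA arrays and 9.10 and 9.17 on the proximal DA arrays. The 3 tissues did not overlap, and the arrays of a tissue lay far closer to each other than to those of the next tissue. With 2 arrays per tissue, an unchanged gene can also separate by chance. A lack of overlap is therefore only a description here and below, and its share over all probe sets was not counted. Values are on the log2 scale of RMA, the method that corrected the background and scaled the arrays to each other, so that a difference of 1 is a doubling of intensity. The proximal DA exceeded the aorta by 2.54 (SE 0.14, n = 2 arrays per tissue), a fold of 5.80. Among all 20804 probe sets, ordered from the largest excess of the proximal DA over the aorta, *entpd2* stood at rank 37. The distance was split almost evenly along the vessel: the distal DA exceeded the aorta by 1.32 (SE 0.14) and the proximal DA exceeded the distal DA by 1.22 (SE 0.14).

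Adenosine deaminase, *ada*, ran the other way along the same arteries. On the log2 scale it read 8.37 and 8.50 in the aorta, 7.56 and 7.75 in the distal DA, and 6.92 and 6.80 in the proximal DA. Again no array of 1 tissue reached into the range of another, and the aorta held the highest values. The proximal DA minus the aorta was -1.58 (SE 0.15), which is 2.98-fold lower intensity, and *ada* stood at rank 79 when the probe sets were ordered from the most negative difference. Both steps were of like size, at -0.78 (SE 0.15) for the distal DA minus the aorta and -0.80 (SE 0.15) for the proximal DA minus the distal DA.

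**Figure D1:**
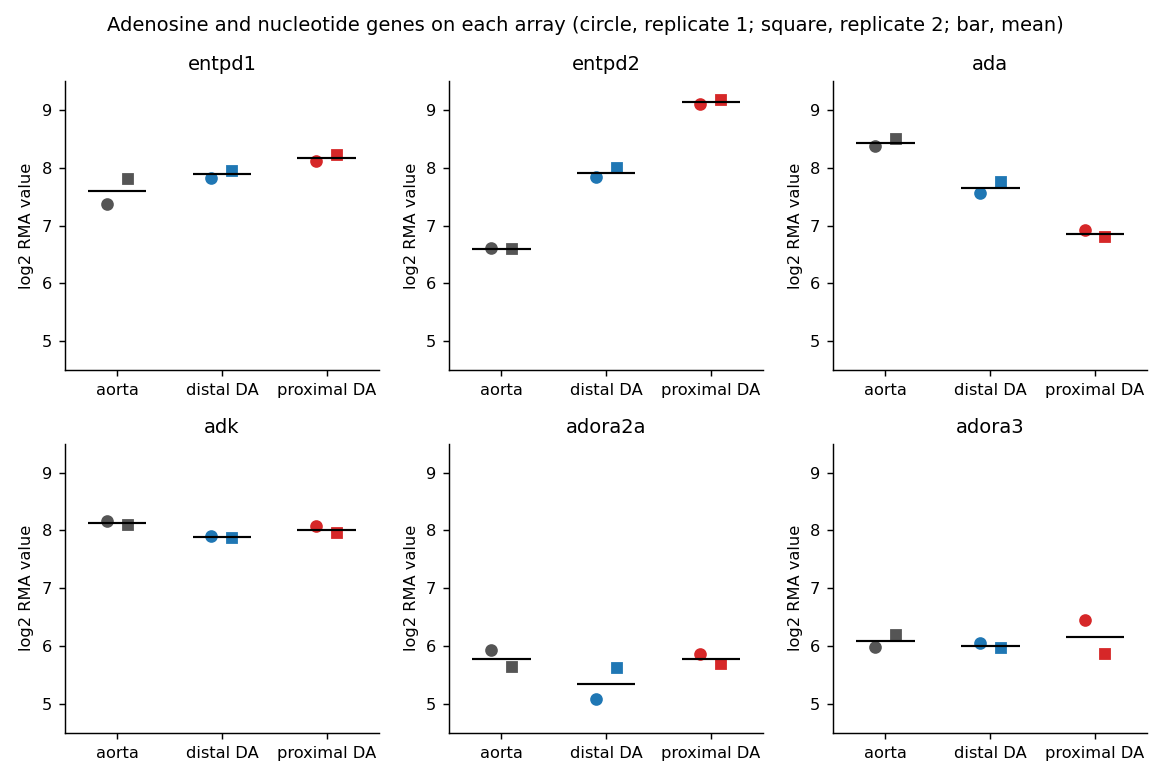
Log2 RMA values (y axis) of the 6 measured genes in the aorta, distal DA and proximal DA (x axis), with 1 point per array and a bar at the mean of the 2 arrays. For *entpd2* the values climb from 6.61 and 6.59 in the aorta to 9.10 and 9.17 in the proximal DA, and for *ada* they go down from 8.37 and 8.50 to 6.92 and 6.80.

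The other ectonucleotidase, *entpd1*, which removes both ATP and ADP, showed the same order of tissues as *entpd2* with smaller distances. Its log2 values were 7.38 and 7.81 in the aorta, 7.83 and 7.94 in the distal DA and 8.11 and 8.22 in the proximal DA. The aorta arrays differed from each other by more than the arrays of either DA tissue did, and the higher of them lay just under the lower distal DA array. The proximal DA was above the aorta by 0.57 (SE 0.18), a fold of 1.48, the distal DA was above the aorta by 0.29 (SE 0.18), and the proximal DA was above the distal DA by 0.28 (SE 0.18). Without aorta replicate 1 these differences were 0.36 and 0.08, and without aorta replicate 2 they were 0.79 and 0.51. RefSeq gives ENTPD1 also as an older name of *entpd8*. The probe set used here carries the gene ID of *entpd1* itself, and *entpd8* has a probe set of its own.

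Adenosine kinase, *adk*, differed little between the tissues. Its log2 values were 8.16 and 8.10 in the aorta, 7.90 and 7.87 in the distal DA and 8.07 and 7.96 in the proximal DA. Although no array overlapped with another tissue, the differences were -0.12 (SE 0.13) for the proximal DA minus the aorta, -0.25 (SE 0.13) for the distal DA minus the aorta and 0.13 (SE 0.13) for the proximal minus the distal DA. Ordered by mean from the distal DA through the proximal DA to the aorta, each tissue thus lay within 1 SE of the next.

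The measured adenosine receptors, *adora2a* and *adora3*, lay below the array medians (6.61 to 6.66) on every array. For *adora2a* the log2 values were 5.93 and 5.64 in the aorta, 5.08 and 5.62 in the distal DA and 5.86 and 5.70 in the proximal DA. The value of 5.08 lay below the lower quartile of its array (5.41), where signal cannot be told from background. The proximal DA minus the aorta was -0.01 (SE 0.21) and the distal DA minus the aorta was -0.44 (SE 0.21), which became -0.17 without distal DA replicate 1. Between the parts of the DA it was 0.43 (SE 0.21), and 0.16 without that array. For *adora3* the values were 5.99 and 6.19 in the aorta, 6.05 and 5.97 in the distal DA and 6.45 and 5.86 in the proximal DA. All 3 tissues overlapped for *adora3*, and the proximal DA minus the aorta was 0.07 (SE 0.21). Its sign depended on single arrays, with -0.23 when proximal DA replicate 1 was left out and 0.36 when replicate 2 was.

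**Figure D2:**
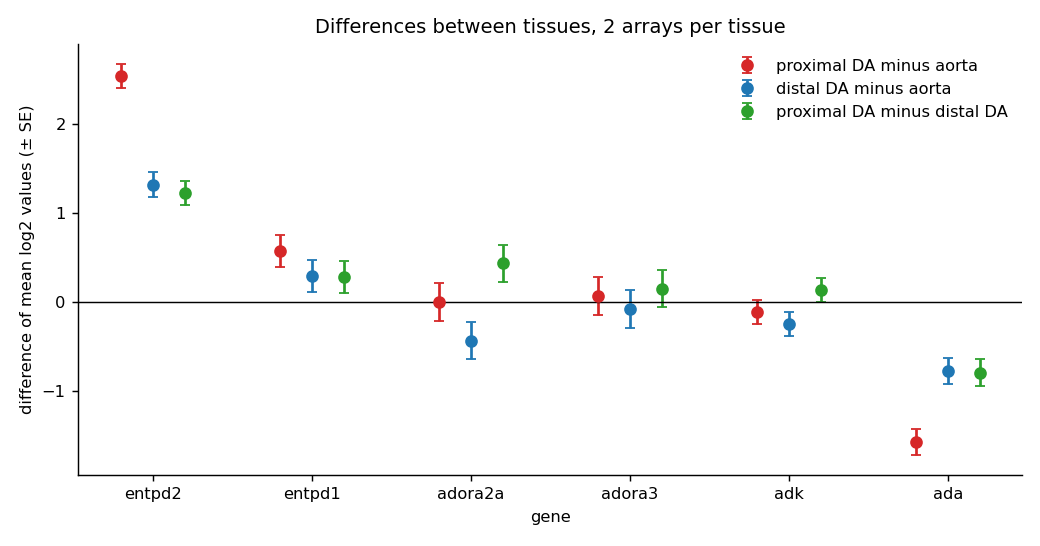
Difference of mean log2 values (y axis) for each measured gene (x axis) in the 3 comparisons of tissues, with bars of 1 SE from limma and 2 arrays per tissue. The largest differences are those of *entpd2* (2.54) and *ada* (-1.58) between the proximal DA and the aorta, while those of *adora3* and *adk* stay between -0.25 and 0.15.

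The counts past the threshold of the fit are given beside the share of all probe sets past it. The 3 tissues were fitted together by limma, a linear model that borrows information on the spread from all probe sets, and a probe set was called at a Benjamini-Hochberg adjusted p under 0.05 over all 20804. In the proximal DA against the aorta, 1 of the 6 member probe sets was called higher (*entpd2*) and 1 lower (*ada*), where 3.33% of all probe sets were called higher and 2.34% lower. In the distal DA against the aorta, 1 of 6 was called higher (*entpd2*) and 0 lower, beside 0.952% and 0.644% of all probe sets. *ada* was not called there, with a difference of -0.78 (SE 0.15) and no overlap of arrays. It was called by the alternatives with a mean-variance trend and with only the brighter 0.5 of the probe sets. Between the parts of the DA, 1 of 6 was called higher in the proximal DA (*entpd2*) and 0 lower, beside 0.159% and 0.0913%. Here too, *ada* was not called, with a difference of -0.80 (SE 0.15). The median difference over the 6 probe sets was 0.03 for the proximal DA minus the aorta, -0.16 for the distal DA minus the aorta and 0.21 between the parts of the DA, and over all probe sets it was -0.015, -0.005 and -0.02. As the values were in view when the set was proposed, nothing is read from these counts or calls, here or under the alternatives. The 2 comparisons with the aorta share its arrays.

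With either distal DA array left out, *entpd2* was not called in the distal DA against the aorta or between the parts of the DA. Most calls over all probe sets were lost there too, where a tissue held a lone array. Why they were lost was not tested. The call between the parts of the DA was also lost without either proximal DA array, as were nearly all calls of that comparison over all probe sets. Nothing is read from these losses, since *entpd2* was chosen with its values in view. For the proximal DA minus the aorta, the difference of *entpd2* stayed between 2.5 and 2.57 over all alternatives. Its difference stayed between 1.24 and 1.39 for the distal DA minus the aorta and between 1.15 and 1.30 for the proximal minus the distal DA over all alternatives. Of these alternatives, only cyclic loess and the omission of an array of a compared tissue can move a difference. With the replicate number as a block, 0 of 6 were called between the parts of the DA, and 0 of all probe sets.

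The mean log2 values of 8 marker lists of cell types stand here beside those of *entpd2* and *ada*. The lists are partial, since some of their genes matched no probe set. Counts are of probe sets, and a gene such as *myh11* or *myl9* can have more than 1. Over all 20804 probe sets, 3.33% were called higher and 2.34% lower in the proximal DA against the aorta. The shares were 0.952% and 0.644% in the distal DA against the aorta, and 0.159% and 0.0913% between the parts of the DA. At an unadjusted limma p under 0.05, 1745 were higher and 2029 lower in the first comparison. These counts were 1131 and 1111 in the second, and 822 and 699 in the third. The samples are whole vessel segments, in which fewer cells of a type and less RNA per cell cannot be told apart. Of the 9 probe sets of contractile smooth muscle markers, none lay below the lower quartile of any array. Their mean was 9.321 to 9.474 in the aorta, 10.703 to 10.817 in the distal DA and 11.003 to 11.113 in the proximal DA, and 7 of 9 were called higher in each part of the DA against the aorta. From the distal to the proximal DA this mean differed by 0.30, with members from -0.48 (*mylk*) to 1.03 (*tagln*) and 0 of 9 called. The endothelial list read 7.28 to 7.33, 8.16 to 8.19 and 8.49 to 8.56 in the same order, with 8 of 11 probe sets called higher in the proximal and 4 in the distal DA, and its step along the DA was 0.35 with 0 of 11 called. Both list means had the order of tissues of *entpd2*. Along the DA, 5 of 9 smooth muscle probe sets were above 0 and 4 below, and 10 of 11 endothelial probe sets were above 0 and 1 below.

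Lung and airway epithelial markers were at 5.97 to 6.02 in the aorta, 5.80 to 5.94 in the distal DA and 6.80 to 7.20 in the proximal DA, with *grhl2* below the lower quartile on every array. Against the aorta, 4 of 11 were called higher in the proximal DA. The distal DA had 0 of 11 called (0 with an unadjusted limma p under 0.05 as well), and its list mean differed from that of the aorta by -0.13. From the distal to the proximal DA the list mean differed by 1.13, beside 1.22 for *entpd2*, with 11 of 11 probe sets above 0, 1 called higher by limma and 7 at an unadjusted p under 0.05. The mean of the fibroblast and adventitial list had the order of *ada*, at 10.04 to 10.25 in the aorta, 9.78 to 9.81 in the distal DA and 9.52 to 9.60 in the proximal DA. Its members were mixed. In the proximal DA against the aorta 6 of 13 were called lower and 1 higher, and in the distal DA 2 lower and 1 higher. Between the parts of the DA 6 were above 0 and 7 below, with 1 called lower.

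Mammalian leukocytes are rich in adenosine deaminase. The mean of the leukocyte list was 6.28 to 6.30 in the aorta, 6.29 to 6.37 in the distal DA and 6.38 to 6.52 in the proximal DA, with *ikzf1* below the lower quartile on every array. In the proximal DA against the aorta, 7 of 14 members were above 0 and 7 below, with 3 higher and 0 lower at an unadjusted limma p under 0.05. The differences ran from 1.09 for *cd74*, which was called higher, to -0.30 for *lcp1*. *lcp1* was not called, and its arrays did not overlap between these tissues. In the distal DA against the aorta 0 of 14 were called by limma, with 1 in each direction at an unadjusted p under 0.05, the lower one being *lcp1* (-0.34). Red blood cell and thrombocyte markers read 6.30 to 6.60 in the aorta, 7.05 to 7.08 in the distal DA and 6.82 to 7.14 in the proximal DA, with 2 of 9 called higher against the aorta in the distal DA. The proximal DA had 1 called higher, *itgb3*, an integrin subunit of thrombocytes (1.77). Of the 9, 2 were below the lower quartile on every array. Schwann cell and nerve markers, of which 3 of 8 were below the lower quartile on every array, read 5.79 to 5.84, 5.51 to 5.72 and 5.84 to 6.06. From the distal to the proximal DA their mean differed by 0.33, with 6 probe sets above 0 and 2 below. In that comparison 0 of 8 were called by limma (2 higher unadjusted). In the distal DA against the aorta 2 were above 0 and 6 below, with 0 called (2 lower unadjusted). The proximal DA against the aorta also had 0 called (2 higher and 1 lower unadjusted). Cardiac muscle markers read 5.43 to 5.55, 5.55 to 5.58 and 5.38 to 5.75, with 0 of 5 called by limma in any comparison (1 higher unadjusted in the proximal DA against the aorta). The part of each of these cell types in the differences of *entpd2* and *ada* was not tested.

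**Figure D3:**
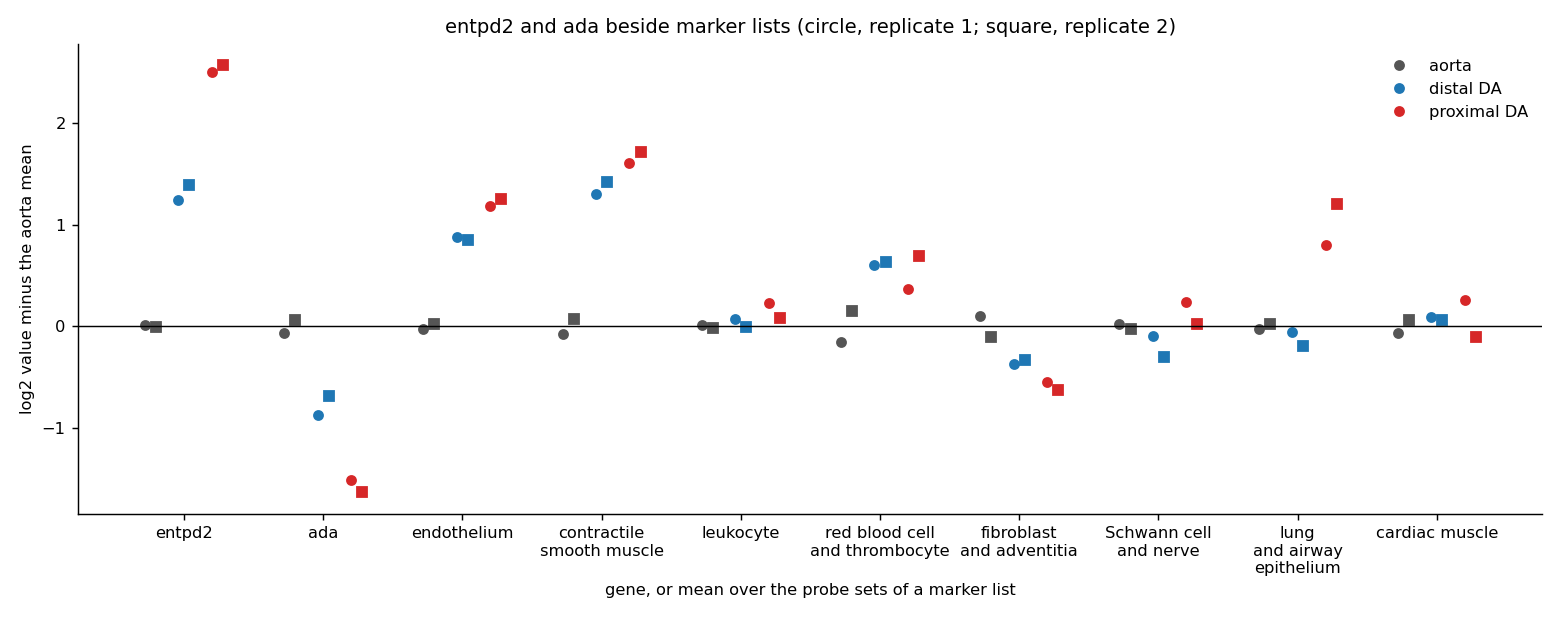
Log2 values of *entpd2* and *ada* and mean log2 values of 8 marker lists (x axis), each minus its aorta mean (y axis), with 1 point per array coloured by tissue. From the distal to the proximal DA, *entpd2* differs by 1.22, the epithelial list by 1.13, the endothelial list by 0.35, the Schwann cell and nerve list by 0.33 and the smooth muscle list by 0.30. From the aorta to the distal DA, *entpd2* differs by 1.32, the smooth muscle list by 1.36 and the endothelial list by 0.87. For that step the epithelial list differs by -0.13 and the Schwann cell and nerve list by -0.20.

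Genes with the most similar patterns over the 6 arrays were taken for the 3 members whose tissue means spanned the widest range, by Pearson's r among probe sets with 1 symbol whose own tissue means spanned at least 1. These correlations describe 6 arrays of 3 tissues, so any gene that steps along the vessel in the same way scores high. Nearest to *entpd2*, among 609 candidates, were *slc4a4*, a sodium bicarbonate cotransporter (r = 0.999), *actn4*, an actin-crosslinking actinin (0.997), the forkhead transcription factor *foxf1* (0.996), *sipa1l2* (0.995) and *gli2*, a transcription factor of hedgehog signalling (0.995). Tissue means of *foxf1* on the log2 scale were 6.24 for the aorta, 7.71 for the distal DA and 9.26 for the proximal DA, a range wider than that of *entpd2*. For *ada*, the nearest were *klhdc3* (r = 0.996), *arl8bl* (0.995), the angiotensin-converting enzyme *ace* (0.992), the cell adhesion molecule *ncam1* (0.991) and *sesn1*, a stress-responsive sestrin (0.990). The means of *ncam1* were 11.59, 10.72 and 9.72 in the aorta, distal DA and proximal DA. For *entpd1* they were *atoh8* (r = 0.994), *chgb* (0.990), the metalloprotease *adamts9* (0.986), *tbx18* (0.980) and the junctional membrane protein gene *jph2* (0.976), among 610 candidates.

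Around the 6 genes, 5 lists of other purinergic genes were examined by the test. The first held enzymes that cut extracellular nucleotides, together with other extracellular enzymes such as those of *dpp4* and *enpp6*. The others held nucleoside transporters and ATP release channels, intracellular enzymes of adenosine and AMP, P2X receptors, and P2Y and related receptors. All were chosen with earlier results of these data known, so their p-values and counts are not those of lists fixed beforehand. The 5 lists held 68 probe sets. In the proximal DA against the aorta, 4 were called higher and 4 lower by limma, 8 of 68 in all, where 5.66% of all probe sets were called in either direction. The median difference over the 68 was 0.07, against -0.015 over all probe sets. In the distal DA against the aorta 0 of 68 were called, beside 1.60% of all probe sets. Between the parts of the DA 0 of 68 were called, beside 0.250%. At an unadjusted limma p under 0.05, 12 of 68 passed in the distal DA against the aorta, 6 in each direction. Over all 20804 probe sets, 1131 were higher and 1111 lower at that threshold. Between the parts of the DA 8 of 68 passed unadjusted, 4 in each direction, beside 822 higher and 699 lower over all probe sets.

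Among the extracellular enzymes, the ectonucleotide pyrophosphatases *enpp1* and *enpp2* differed in opposite directions. ENPP1 splits ATP into AMP and pyrophosphate, an inhibitor of mineral deposition, and ENPP2, known as autotaxin, makes the lipid mediator lysophosphatidic acid. The first probe set of *enpp1* (15497512) read 8.83 and 8.76 in the aorta, 7.95 and 8.34 in the distal DA and 7.07 and 7.42 in the proximal DA. Its second probe set (15497516) read 10.18 and 9.80, 9.32 and 9.51, and 8.56 and 8.63. Both put the 3 tissues in the order of *ada* without overlap. Relative to the aorta, *enpp1* was lower in the proximal DA, with a difference of -1.55 (SE 0.19, limma adjusted p = 0.00452) at the first probe set and -1.40 (SE 0.17, adjusted p = 0.00461) at the second, and both calls held under every alternative that was run. In RefSeq no protein-coding gene lies between *enpp1* and *enpp3*, whose difference was -0.93 (adjusted p = 0.162).

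*enpp2* read 8.07 and 8.48 in the aorta, 9.60 and 10.15 in the distal DA and 9.64 and 10.78 in the proximal DA. Every DA array was above both aorta arrays, the proximal and distal DA overlapped, and the proximal DA arrays lay far apart. The proximal DA exceeded the aorta by 1.94 (SE 0.37, limma adjusted p = 0.0255), a call lost without aorta replicate 1 or proximal DA replicate 2, and the distal DA exceeded the aorta by 1.60 (adjusted p = 0.108). The other extracellular enzymes, among them *entpd3*, *entpd4*, *entpd5*, *entpd7*, *entpd8*, *alpl*, *bst1*, *dpp4*, *enpp3* and *enpp6*, were not called in any comparison of the fit as described. *dpp4* was called in the proximal DA against the aorta with cyclic loess normalization and without aorta replicate 2, and *enpp3* without aorta replicate 2. In the proximal DA against the aorta, 1 of the 13 probe sets of this list was called higher and 2 lower. Over all probe sets the shares were 3.33% and 2.34%.

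Of 12 probe sets of transporters and release channels, 1 was called in the proximal DA against the aorta, beside 5.66% of all probe sets. It was that of *ankh*. ANKH is a membrane protein through which ATP and pyrophosphate leave cells. Its log2 values were 10.13 and 10.05 in the aorta, 9.75 and 9.79 in the distal DA and 9.07 and 9.36 in the proximal DA, so that the tissues did not overlap and followed the order of *enpp1*. The proximal DA was lower than the aorta by a difference of -0.88 (SE 0.15, limma adjusted p = 0.0179), which did not pass without either aorta array or without proximal DA replicate 1. The main equilibrative nucleoside transporter gene, *slc29a1*, which moves adenosine across the cell membrane, read 9.53 and 9.09 in the aorta, 9.52 and 9.67 in the distal DA and 9.61 and 9.92 in the proximal DA. Its proximal DA values were above both aorta arrays, but the difference of 0.46 did not pass.

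In the proximal DA against the aorta, 3.33% of all probe sets were called higher and 2.34% lower. Of 29 probe sets of intracellular enzymes, 2 were called higher there and 0 lower. They were *ak5*, an adenylate kinase known from brain, at 1.05 (SE 0.21, limma adjusted p = 0.0320), and *adss1*, the muscle form of adenylosuccinate synthetase, at 0.88 (SE 0.19, adjusted p = 0.0408). The values of *ak5* were 5.12 and 5.33 in the aorta, 5.72 and 6.08 in the distal DA and 6.03 and 6.52 in the proximal DA. Both aorta values lay below the lower quartiles of their arrays (5.31 and 5.38), so that the size of the difference is not exact, and the call was lost with cyclic loess normalization, without either aorta array and without proximal DA replicate 2. The call of *adss1* was lost in the fit of only the 2 tissues, with the replicate block and on the omission of any array but proximal DA replicate 1. Omission of either distal DA array gave the same fit as only the 2 tissues, so these losses are not separate.

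**Figure D4:**
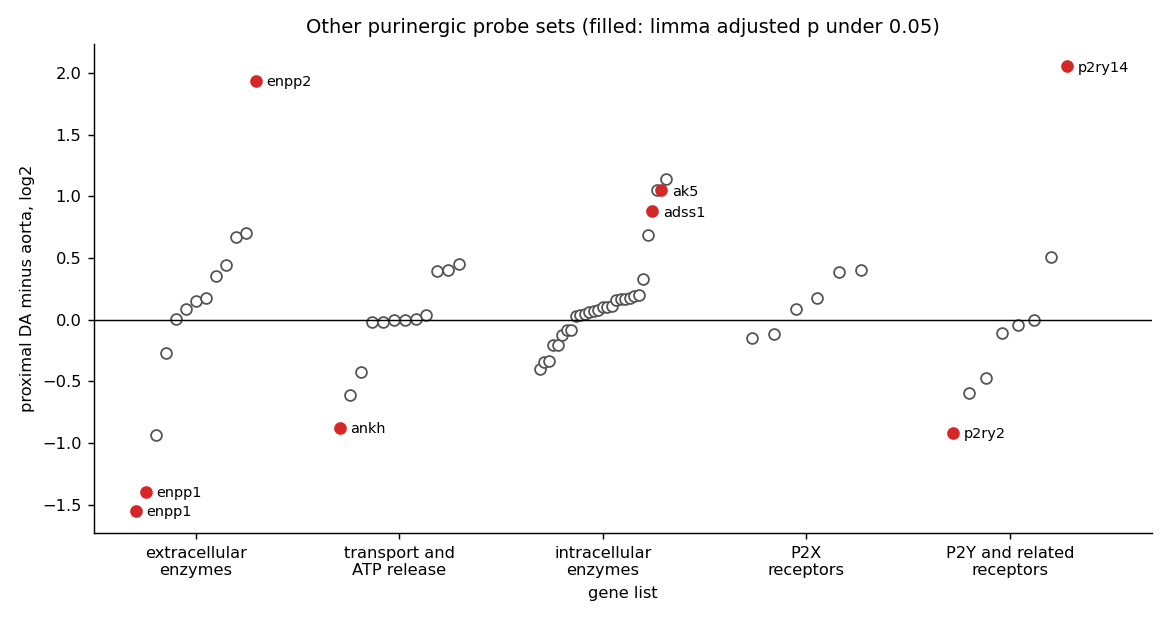
Log2 difference between the proximal DA and the aorta (y axis) for the 68 probe sets of 5 lists of other purinergic genes (x axis), with those at a limma adjusted p under 0.05 filled and named. The 8 filled points run from -1.55 for *enpp1* to 2.06 for *p2ry14*, and the P2X list has none.

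Of 6 P2X probe sets, which encode ATP-gated channels, 0 were called in any comparison by limma (0 with an unadjusted p under 0.05 as well), and the smallest p against the aorta was that of *p2rx3*, with a difference of 0.41 (SE 0.19) in both parts of the DA. The next were *p2rx7* at 0.39 in the proximal DA (adjusted p = 0.418) and *p2rx2* at 0.26 in the distal DA (adjusted p = 0.688). Of 8 P2Y and related probe sets, 1 was called higher and 1 lower in the proximal DA against the aorta. Over all probe sets the shares were 3.33% and 2.34%. *p2ry14*, the receptor of UDP-glucose and other UDP-sugars, read 5.74 and 6.13 in the aorta, 7.01 and 6.99 in the distal DA and 7.60 and 8.38 in the proximal DA. It shared the order of *entpd2*, with no overlap between tissues. The proximal DA was higher than the aorta by 2.06 (SE 0.26, limma adjusted p = 0.00530), a fold of 4.16, and the call held under every alternative that was run. Its steps of 1.07 from the aorta to the distal DA (adjusted p = 0.128) and 0.99 from the distal to the proximal DA (adjusted p = 0.290) did not pass.

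*p2ry2*, which encodes a receptor of ATP and UTP that in mammals is found on endothelium and smooth muscle, followed the order of *ada*. Its log2 values were 8.15 and 8.17 in the aorta, 7.57 and 7.60 in the distal DA and 7.24 and 7.25 in the proximal DA. Arrays of 1 tissue hardly differed, and the tissues did not overlap. The difference between the proximal DA and the aorta was -0.92 (SE 0.13, limma adjusted p = 0.00840), which did not pass without proximal DA replicate 2. In the distal DA it was -0.58 (adjusted p = 0.103), and between the parts of the DA -0.34 (adjusted p = 0.584). The remaining members of the list (*p2ry1*, *p2ry6*, *p2ry8*, *p2ry12*, *p2ry13* and *gpr17*) were not called. In RefSeq, *p2ry12*, *p2ry13* and *p2ry14* lie close together on 1 chromosome, and their differences between the proximal DA and the aorta were -0.59, -0.48 and 2.06. *p2ry2* and *p2ry6*, with 1 protein-coding gene between them, differed by -0.92 and -0.04.

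**Figure D5:**
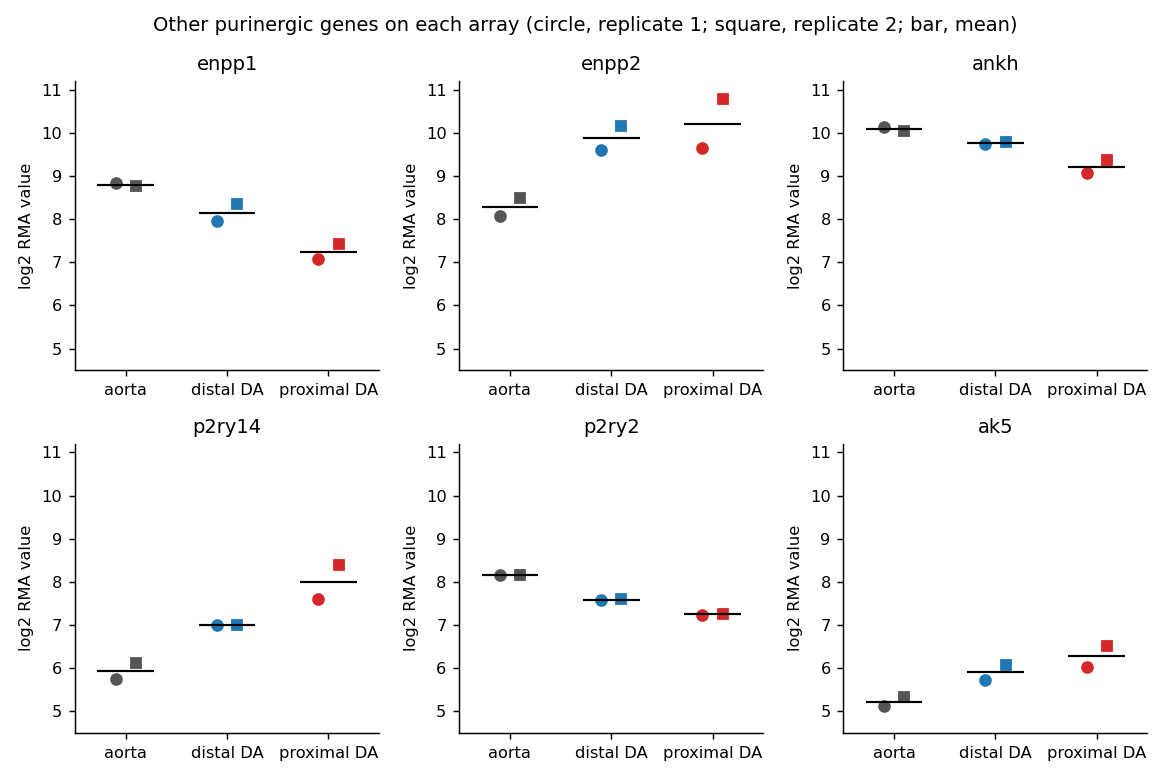
Log2 RMA values (y axis) of 6 other purinergic genes in the 3 tissues (x axis), with 1 point per array, a bar at the mean and the first probe set of *enpp1*. *enpp1*, *ankh* and *p2ry2* go down from the aorta to the proximal DA, and *p2ry14* goes up from 5.74 and 6.13 to 7.60 and 8.38.

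For the comparisons in which a list had no called gene, the genes of its 2 smallest p values are given, beside those already described. In the distal DA against the aorta, *ankh* differed by -0.32 (SE 0.15) and *slc17a9*, the vesicular nucleotide transporter, by -0.33 (SE 0.15), and neither passed (limma adjusted p = 0.538 and 0.514). The intracellular enzymes *ak5* and *hprt1*, a purine salvage enzyme, differed by 0.68 (SE 0.21, adjusted p = 0.254) and 0.51 (SE 0.18, adjusted p = 0.325). The difference of *enpp1* from the aorta was -0.65 (SE 0.19, adjusted p = 0.210) at its first probe set. Between the parts of the DA, the *enpp1* probe sets were lower on the proximal side by differences of -0.90 (adjusted p = 0.165) and -0.82 (adjusted p = 0.163), values that did not pass although no arrays overlapped. *ankh* differed by -0.56 (adjusted p = 0.313) and *panx2*, of the pannexin channel family, by 0.49 (adjusted p = 0.350). *nt5c1b*, a cytosolic nucleotidase, and *nt5dc3*, which carries a nucleotidase domain, differed by 0.68 (adjusted p = 0.711) and 0.76 (adjusted p = 0.494). Among P2X genes the values were 0.10 for 1 of the *p2rx4* probe sets and -0.08 for *p2rx5* (both adjusted p = 0.997).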

How the data were processed

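The deposited log2 values were made by the authors with RMA in the oligo package from Affymetrix GeneChip Chicken Gene 1.0 ST arrays, 100 ng of total RNA each. RMA subtracts background, quantile normalizes the arrays and summarizes probes. Values carry 2 decimals and no detection call. Array medians were 6.61 to 6.66 and lower quartiles 5.25 to 5.41. The number of arrays limits the precision. The build behind the array annotation: not given in the sources used here.

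All 20804 probe sets were fitted as deposited with limma 3.58.1 in R 4.3.3 (lmFit, contrasts.fit, eBayes; tissue means only; 3 residual and 4.40 prior degrees of freedom). P-values were adjusted by Benjamini-Hochberg across the whole table. In data simulated for the proximal DA against the aorta over 20804 probe sets, 71% of 200 changes of 1 (log2) were called, and 99.5% of changes of 2. The simulation had independent normal noise, and all 200 changes were increases in the proximal DA. These shares therefore need not hold for the real arrays. A single symbol was known for 12300 probe sets; 256 with several were not used for names. Of the 82 genes listed as other purinergic genes, 63 matched by symbol. Of the marker genes listed, 7 of 15 matched for contractile smooth muscle, 10 of 15 for endothelium and 13 of 15 for leukocytes. For red blood cells and thrombocytes it was 8 of 16, and for fibroblasts and adventitia 13 of 14. For Schwann cells and nerve it was 8 of 15, for epithelium 8 of 13 and for cardiac muscle 5 of 10.

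The members, lists and alternatives were chosen with earlier results of these data known. Named genes were every member; per list and comparison, up to 6 called genes with the largest difference or else those with the smallest p; and the 5 genes most like each of 3 members. Other genes named were chosen after their values were seen. Alternatives were a fit of only the 2 tissues, eBayes with trend and robust, cyclic loess, the brighter 0.5 of the probe sets, the replicate block and each array left out. Leaving out an array of the tissue not compared gave the same fit as only the 2 tissues, so it was no separate check. A mean over the probe sets of a gene could not be run, since each member has 1.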

Additional observations from a re-analysis of the deposited data

Results flagged for a closer look

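*panx2*, a pannexin of the list of ATP release channels, stood on opposite sides of the aorta in the parts of the DA on every array. Its log2 values were 6.17 and 6.11 in the aorta, 6.02 and 6.09 in the distal DA and 6.63 and 6.45 in the proximal DA. The proximal DA minus the aorta was 0.40 (SE 0.14) and the distal DA minus the aorta was -0.09 (SE 0.14). The difference between these effects is the proximal minus the distal DA, at 0.49 (SE 0.14, adjusted p = 0.350 from limma), which did not pass. In groups of 2 arrays no search for outlying arrays could be made.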

How the results depend on the processing

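The 18 differences of the 6 measured members were recomputed 192 times under alternatives, and 186 values kept their sign. The 6 that did not were of *adora2a* and *adora3*. Many of these recomputations could not change a value, so the count of 186 overstates how far the signs were tried. A difference of tissue means can move only under cyclic loess or when an array of a compared tissue is left out. The other alternatives returned the same difference and bear only on its SE or call. The brighter 0.5 of the probe sets leaves out both receptors and keeps 43 of the 68 other purinergic probe sets. Of these 43, 7 were called higher in the proximal DA against the aorta (4 as reported). *enpp6*, *nt5c1b*, *nt5dc3* and *hprt1* were added, while *ak5* was not among the probe sets kept. In the distal DA against the aorta, 1 (*enpp2*) was called higher (0 as reported). In the distal DA, 1 member (*ada*) was then called lower, as also with trend and robust moderation. Over all probe sets between the parts of the DA, the brighter 0.5 gave 61 higher and 46 lower (33 and 19 as reported), and trend and robust moderation gave 34 lower. With the replicate block, 0 members and 0 probe sets in either direction were called between the parts of the DA, and 1 other purinergic probe set (*enpp2*) was called higher in the distal DA against the aorta, while in the proximal DA *nt5c1b* was added and *adss1* lost. The replicate numbers are only names in the labels: deviations of replicate 1 from the tissue mean correlated across probe sets at -0.0339 for the proximal DA and the aorta, 0.199 for the distal DA and the aorta and 0.321 for the parts of the DA. With each array left out in turn, other purinergic probe sets called higher in the proximal DA against the aorta numbered 1 to 5, and members called higher numbered 0 to 1 in the distal DA against the aorta and 0 to 1 between the parts of the DA. All probe sets called ranged from 261 to 530 higher and 191 to 597 lower in the proximal DA, from 36 to 145 higher and 16 to 141 lower in the distal DA, and from 0 to 36 higher and 0 to 19 lower between the parts of the DA. The lone array left in a tissue is assumed to vary like the others. The causes of these changes were not tested.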
